A study of Mus musculus with 8 samples.

Results

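The comparison described here sets primary mouse hepatocytes labelled HO1-/- against hepatocytes labelled HO1+/+, both carrying a scrambled short hairpin RNA (shRNA), and asks what the HO1 genotype changes where heme oxygenase 2 is left in place. It rests on 4 of the 8 arrays of the study, the 2 titled as HO1 knockout and the 2 titled as control, chosen by their labels, and on all 19938 genes with a probe set that names 1 gene. The cells came from livers of male mice on a BALB/c background, HO1-/- or HO1+/+, by collagenase perfusion and a Percoll gradient. All were transduced with a pLKO.1 lentivirus, moved into puromycin after 24 h, kept under selection for 3 days, pulsed with dexamethasone (1 µM, 30 min) and collected 28 h after that. The other 4 arrays, 2 of each genotype with an shRNA against HO2, do not enter this difference and serve below as a second measurement of it under another hairpin. They do enter the estimate of spread behind the p-values, which was taken over all 8 arrays. The sources used here give neither the age of the mice, nor the exons removed, nor the number of animals per array. The labels call the replicates biological without naming their animals or cultures, so p-values measure only the spread between these samples, and effects of a hepatocyte preparation and of the genotype cannot be told apart.

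Heme oxygenases open the heme ring and release carbon monoxide, biliverdin and iron, and biliverdin reductases then turn biliverdin into bilirubin. Heme oxygenase 1, the product of Hmox1, is the inducible form, held down by the heme-binding repressor BACH1 and switched on by NRF2 in oxidative stress, while heme oxygenase 2, the product of Hmox2, is constitutive. In the liver much heme is handled by Kupffer cells, the resident macrophages that take up aged red cells, and the hepatocyte also makes the plasma proteins haptoglobin and hemopexin that carry hemoglobin and heme.

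Values are log2 signals of whole-transcript arrays, compared between samples for the same gene and never between genes. Where linear signals are summed over a list, the sums are also compared between samples, and bright probe sets weigh most in them. A gene is called higher or lower where limma's moderated test gives a Benjamini-Hochberg adjusted p under 0.05 over all genes, and SE stands for that test's standard error. The array medians lay between 8.14 and 8.18, and the 2 control arrays correlated with r = 0.997 and the 2 arrays labelled HO1 knockout with r = 0.998 across genes. Over all 8 arrays the first principal component held 48.0% of the variance and divided HO1-/- from HO1+/+ samples. The hepatocyte markers were present in all 4 arrays, with albumin (Alb) at 13.32 and 13.40 in control and 13.39 and 13.36 in the arrays labelled HO1 knockout, and the liver factor Hnf4a at 12.04 and 12.07 against 12.18 and 12.26.

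The signal of Hmox1 was higher, not lower, in the arrays labelled HO1 knockout. It read 11.46 and 11.40 in control against 11.98 and 11.97, a log2 difference of 0.54 (SE 0.046, adjusted p = 3.36e-07), with no overlap of the groups. A probe set summed over a whole transcript does not settle whether a partly deleted gene is still transcribed, so the genotype was not checked by this value and every direction below rests on the labels. With HO2 shRNA, Hmox1 was called higher in the arrays labelled HO1-/- as well. Hmox2 read 11.41 and 11.57 in control against 11.59 and 11.60 and was not called (log2 difference 0.11, adjusted p = 0.376). The biliverdin reductases moved apart: Blvra rose by 0.67 (adjusted p = 1.38e-05) and Blvrb fell by 0.34 (adjusted p = 0.000254).

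Of the 19938 genes, 2557 were called (12.8%), of which 1121 were higher (5.62%) and 1436 lower (7.20%) in the arrays labelled HO1 knockout. The median change was 0.47 among genes called higher and -0.32 among genes called lower, and the median over all genes was -0.04. At least 2-fold rises numbered 275 (1.38% of genes) against 31 such falls (0.155%), 55 genes rose at least 8-fold (0.276%), and 1 gene fell that far. The groups did not overlap for 46.1% of all genes tested, so with 2 arrays a group a lack of overlap alone says little. Which direction held more calls depended on the setting: without replicate 1 of the arrays labelled HO1 knockout 866 of 1704 called genes were higher, without replicate 2 913 were higher and 811 lower, without the mean-variance trend 911 and 890, and at an adjusted p under 0.01 845 and 730, 1575 in all.

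**Figure D1:**
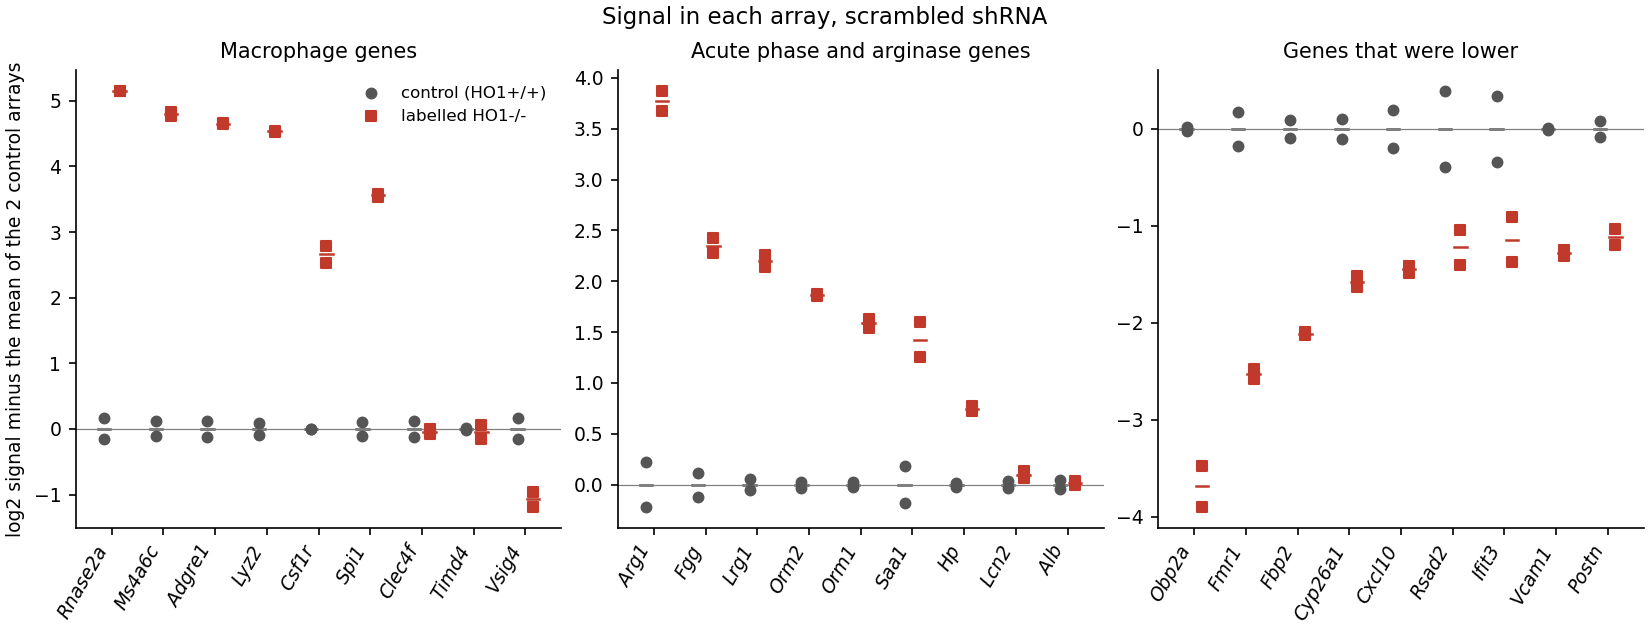
Log2 signal of each array minus the mean of the 2 control arrays, for 27 genes in 3 panels with their own vertical scales. Circles are the 2 control arrays, squares the 2 arrays labelled HO1 knockout, and short lines the group means. Rnase2a, Ms4a6c, Adgre1 and Lyz2 stand more than 4 log2 units above control, Clec4f, Timd4, Lcn2 and Alb were not called, and Obp2a stands 3.69 below.

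The largest rises were in genes of macrophages and related myeloid cells. The ribonuclease gene Rnase2a read 7.34 and 7.66 in control and 12.65 in both arrays labelled HO1 knockout, which is 35.4-fold (log2 difference 5.15, SE 0.11, adjusted p = 1.06e-14). Adgre1, the gene of the F4/80 antigen of macrophages, read 6.43 and 6.67 against 11.19 and 11.21, or 25.1-fold (adjusted p = 1.29e-14). Lyz2, the macrophage lysozyme gene, read 8.62 and 8.81 against 13.26 and 13.25, or 23.2-fold (adjusted p = 4.16e-15). For each of these 3 genes both arrays labelled HO1 knockout sat close together and far above both controls. The values come with no detection calls, and the control values of Adgre1, like those of Tlr7 below, lie under 6.77, the mean level below which genes were left out as dim in 1 alternative, so such folds compare signals and their order may not be that of transcript amounts. The rest of the 15 largest rises were Ms4a6c, Ms4a6d and Ms4a4a of a family of tetraspan membrane proteins (log2 differences 4.80, 4.60 and 4.34), the collagenase gene Mmp8 (4.64), the complement receptor gene C3ar1 (4.42), Pla2g7, which inactivates platelet-activating factor (4.32), the leukocyte tetraspanin gene Cd53 (4.29), Cd93 (4.25), the inhibitory receptor gene Lilr4b (4.21), the granule proteoglycan gene Srgn (4.04), the chemokine gene Pf4 (4.04) and the lysosomal Laptm5 (4.02). Of the 55 genes that rose at least 8-fold, 39 stand on one or more of 12 lists of macrophage and leukocyte genes. Those lists hold 288 of the 19938 genes tested and were chosen with earlier results of these data known.

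By role, the list of Fc receptors, C-type lectins and myeloid signalling receptors moved almost whole: 53 of its 55 measured members were higher, 0 were lower, and the median log2 difference was 2.18. Over all genes tested 5.62% were called higher. Like the other lists, it was chosen with earlier results of these data known. The signalling adaptors Fcer1g (8.20 and 8.26 in control, 12.19 in both knockout arrays) and Tyrobp (7.70 and 7.42 against 11.21 and 11.26), which couple many activating receptors to the cell interior, rose by 3.95 and 3.67. Ptprc, the common leukocyte antigen CD45, rose by 2.22, the inhibitory Fc receptor gene Fcgr2b by 3.18 and the activating Fcgr1 and Fcgr3 by 2.18 and 2.76. Of 26 measured macrophage transcription factors and growth factor receptors 16 were higher and 3 lower. Spi1, which encodes PU.1, the factor that directs the myeloid lineage, read 7.04 and 7.26 in control against 10.69 and 10.74, an 11.8-fold difference (adjusted p = 6.77e-14). The colony stimulating factor 1 receptor gene Csf1r rose by 2.66, the transcription factor genes Tfec by 3.10, Spic by 2.95 and Irf8 by 1.00, and the cytokine receptor chain gene Csf2rb by 2.24.

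Effector genes of macrophages followed. Of 25 Toll-like receptors and adaptors 17 were higher and 0 lower, and the rises were largest for the endosomal receptors that sense RNA, Tlr7 (5.76 and 5.91 against 9.64 and 9.61, log2 difference 3.79), Tlr13 (3.68) and Tlr8 (3.48). The cell surface receptor genes moved less, with Tlr1 at 1.52 and Tlr6 at 0.62, while Tlr2 (-0.03, adjusted p = 0.865) and Tlr3, a receptor for double-stranded RNA (-0.16, adjusted p = 0.176), were not called. Of 18 NADPH oxidase and nitric oxide genes 7 were higher and 5 lower, with a median of 0.0004 and a lowest log2 difference of -1.07. Subunits of the phagocyte NADPH oxidase rose, Cybb by 2.60, Rac2 by 2.51, Ncf1 by 1.94, Ncf4 by 1.48 and Cyba by 0.88. Nos2, the inducible nitric oxide synthase gene, fell by 0.88 (10.10 and 10.24 against 9.32 and 9.26). Of 29 cathepsins and lysosomal genes 16 were higher and 2 lower, 11 and 1 without replicate 1 of the arrays labelled HO1 knockout, led by Ctss (3.95), whose product cuts the invariant chain, the proton pump subunit gene Atp6v0d2 (2.53) and Cd68 (2.42). Of 31 complement genes 13 were higher and 3 lower, with a lowest log2 difference of -1.13. The complement genes C1qb, C1qc and C1qa, made by macrophages, rose by 3.79, 3.25 and 1.92, properdin (Cfp) by 3.35 and the C5a receptor gene C5ar1 by 3.13.

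Genes tied to particular macrophage states were called in part. Of 22 measured genes of resident Kupffer cells 8 were higher, 2 lower and 12 were not called. Clec4f, the most specific of them, read 7.52 and 7.27 in control against 7.32 and 7.39 (log2 difference -0.04, adjusted p = 0.897), Timd4, a receptor for dying cells, was at -0.05 (adjusted p = 0.867) and the scavenger receptor gene Marco at 0.15 (adjusted p = 0.501). Vsig4, a complement receptor gene of Kupffer cells, fell by 1.07 (7.27 and 7.58 against 6.24 and 6.47, adjusted p = 2.17e-05). Spic, Fabp7, Cd5l and Xlr of the same list rose by 2.95, 1.90, 1.41 and 0.94. Of 20 genes of monocytes and recruited macrophages 9 were higher and 1 lower. Genes that mark circulating monocytes did not pass the test: Ccr2 was at 0.13 (adjusted p = 0.433), Cx3cr1 at 0.13 (adjusted p = 0.408) and Chil3 at 0.14 (adjusted p = 0.427). Ccr2 read 4.71 and 4.51 in control against 4.71 and 4.77, under the dim level of 6.77 given above. A missing call at such signals says little. Genes found in recruited or lipid-laden macrophages rose, with F13a1 at 3.59, Gpnmb at 2.81, Mmp12 at 2.65 and Trem2 at 1.42. Of 13 genes of MHC class II antigen presentation 4 were higher and 1 lower: H2-Aa, H2-Ab1 and H2-Eb1 and their activator Ciita were not called (0.29, 0.06, 0.11 and -0.07), while the invariant chain gene Cd74 rose by 1.29.

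The promoters shown next, chosen after their values were seen, belong to Fcgr4 (log2 difference 3.86) and Inpp5d (2.83), receptor and signalling genes of the Fc receptor and lectin list and hold the core letters bound by PU.1, whose gene rose 11.8-fold. Each line gives the 250 bases before the RefSeq start of the gene, 5′ to 3′ on the gene's strand, in build GRCm38.p6, with the letters GAGGAAGT or their reverse complement in capitals. Fcgr4 lies on the plus strand at chr1:171018676-171018925, and its match ends 16 bases before the start. Inpp5d, the gene of a phosphatase that damps Fc receptor signalling, lies on the plus strand at chr1:87620062-87620311, with its match 12 bases before the start.
Fcgr4: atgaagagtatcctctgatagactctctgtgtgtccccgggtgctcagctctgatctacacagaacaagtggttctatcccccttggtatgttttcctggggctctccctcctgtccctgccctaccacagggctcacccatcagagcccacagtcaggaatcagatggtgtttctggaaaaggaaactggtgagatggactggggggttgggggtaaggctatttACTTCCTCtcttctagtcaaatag
Inpp5d: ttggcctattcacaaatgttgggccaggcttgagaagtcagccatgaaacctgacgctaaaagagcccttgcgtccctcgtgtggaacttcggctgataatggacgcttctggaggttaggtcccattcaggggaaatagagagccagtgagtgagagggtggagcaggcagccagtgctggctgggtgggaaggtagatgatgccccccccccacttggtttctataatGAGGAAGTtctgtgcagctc
Counted in windows of 250 bases before to 50 after the start and on both strands, GAGGAAGT stood in 8 of 50 promoters (16%) of the called members of that list, in 5.95% of the promoters of all genes called higher, in 2.57% of those called lower and in 2.77% of all 19176 promoters of genes tested. No overlap with another searched motif was removed, and a match is a description of letters. The 50 promoters belong to 42 genes. Listed genes not called were not counted, so a share tied to the call cannot be told from one tied to the list.

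Markers of other cell types were also counted, against the 12.8% of all genes called. Summed over linear signals, the 22 Kupffer cell and macrophage markers totalled 10933 and 11472 in the control arrays and 43843 and 42447 in the arrays labelled HO1 knockout, 3.85 times as much, with 16 members higher and 1 lower. Of 20 T and NK cell markers 1 was higher, Il7r by 2.39, and Cd3d, Cd3e and Cd3g were not called. All values of Cd3d and Cd3g in the 4 arrays compared lay under 6.77, where a missing call says little. Of 12 B and plasma cell markers 2 were higher and 1 lower, 25% in all, with Cd79a and Ms4a1 not called. Without replicate 1 of the arrays labelled HO1 knockout, without their replicate 2 or without control replicate 2, 1 B cell marker was higher. Of 15 dendritic cell markers 2 were higher, Cd74 (1.29) and Irf8 (1.00), and 2 lower, Fscn1 (-0.43) and Bst2 (-0.36), or 26.7%, while Flt3, Zbtb46, Xcr1 and Clec9a were not called. Of 17 neutrophil markers 4 were higher (23.5%), Mmp8, S100a8, Csf3r and Hp, which hepatocytes make, while Elane, Mpo, S100a9 and Ly6g were not called. The call of Csf3r (0.49) was lost without replicate 1 of the arrays labelled HO1 knockout (adjusted p = 0.0575). Erythroid and mesothelial markers had 0 members called of 9 and of 10, and of 10 mast cell and basophil markers 1 was lower. The platelet list had Pf4 alone higher of 7, with the platelet genes Gp9, Itga2b and Ppbp not called. Of 22 sinusoidal endothelial markers 6 were higher and 1 lower, led by Fcgr2b and Stab1 (2.20), which macrophages also carry, and by the hyaluronan receptor gene Lyve1 (1.13), while Stab2, Clec4g and Oit3 were not called. In bulk RNA more cells of a type and more RNA per cell cannot be told apart.

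**Figure D2:**
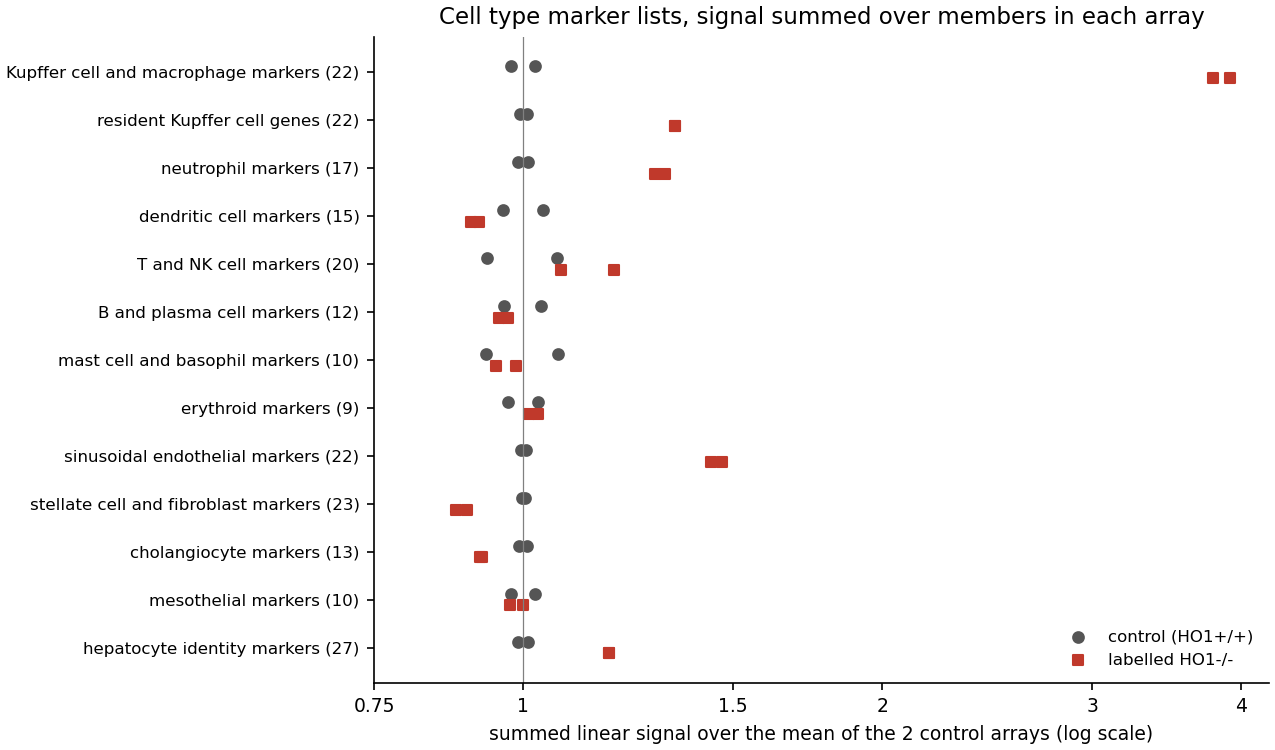
Linear signal summed over the measured members of 13 cell type marker lists in each array, divided by the mean of the 2 control arrays, on a log axis. The number of measured members is in parentheses. Circles are control and squares the arrays labelled HO1 knockout. The macrophage list stands at 3.85 times control, the endothelial list at 1.45, the hepatocyte list at 1.18 and the stellate cell list at 0.888.

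Genes of the acute phase response, plasma proteins that the liver secretes in larger amounts during inflammation, rose together. Of 35 measured members 25 were higher, 0 lower and 10 not called, with a median of 0.62 against -0.04 over all genes. The fibrinogen gamma chain gene Fgg read 8.80 and 9.04 in control against 11.20 and 11.35, or 5.10-fold (adjusted p = 5.34e-13). Lrg1, a secreted leucine-rich glycoprotein, read 8.89 and 9.0 against 11.20 and 11.08, or 4.59-fold (adjusted p = 6.39e-13). The orosomucoid genes Orm2, Orm3 and Orm1 rose by 1.86, 1.68 and 1.59, and the serum amyloid A genes Saa2, Saa1 and Saa3 by 1.64, 1.42 and 0.92. Members of these families are near-identical copies, and how their probe sets divide the signal is uncertain. Itih4 rose by 1.53, Fga and Fgb, the other fibrinogen chains, by 1.10 and 0.91, the protease inhibitor gene Serpina3n by 1.02, the hemoglobin carrier Hp by 0.75 and the heme carrier Hpx by 0.45. Lcn2, an iron-siderophore binding protein gene, was not called (0.10, adjusted p = 0.263). The macrophage markers rose in the same arrays, 16 of 22 with the sums given above, and their part in the acute phase rises was not tested.

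Other lists of liver genes also changed. Of 27 hepatocyte identity markers 13 were higher and 1 lower, among them Ambp (1.10), Cps1, the entry enzyme of the urea cycle (0.76), and Ahsg (0.61). The hepatocyte list shares 5 measured members with the acute phase list. Without the mean-variance trend 9 hepatocyte markers were higher and 1 lower. Coagulation and fibrinolysis genes had 17 of 33 higher and 4 lower, 2 lower without replicate 2 of the arrays labelled HO1 knockout, with F13a1, a macrophage product, at 3.59, then Fgg, Serpina10 (1.17), Serpinf2 (1.06) and plasminogen (Plg, 0.73). Arg1, the arginase of the urea cycle that macrophages also express, read 7.73 and 7.30 against 11.39 and 11.19, a 13.7-fold rise (adjusted p = 3.53e-13), and Hal, which starts histidine breakdown, rose by 1.93. The suppressor of cytokine signalling gene Socs3 rose by 0.69 on its brighter probe set, and its other probe set stood at -0.10, so that their mean was 0.30. Interleukin 10 (Il10) rose by 1.65 and tumor necrosis factor (Tnf) by 1.03, while Il1b was at 0.10 (adjusted p = 0.797).

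The promoters of 2 acute phase genes are shown because they hold the letters TTCNNNGAA, the palindromic core of STAT sites through which interleukin 6 drives this response. They are printed as above in build GRCm38.p6, 250 bases before the start, with the match in capitals. Itih4 lies on the plus strand at chr14:30886226-30886475 and its match ends 42 bases before the start. Fga lies on the plus strand at chr3:83025903-83026152 with its match 225 bases before the start.
Itih4: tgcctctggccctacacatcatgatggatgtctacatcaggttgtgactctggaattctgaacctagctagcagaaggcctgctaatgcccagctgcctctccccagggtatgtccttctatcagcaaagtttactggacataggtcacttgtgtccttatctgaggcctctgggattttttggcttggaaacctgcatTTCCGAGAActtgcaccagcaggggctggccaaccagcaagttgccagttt
Fga: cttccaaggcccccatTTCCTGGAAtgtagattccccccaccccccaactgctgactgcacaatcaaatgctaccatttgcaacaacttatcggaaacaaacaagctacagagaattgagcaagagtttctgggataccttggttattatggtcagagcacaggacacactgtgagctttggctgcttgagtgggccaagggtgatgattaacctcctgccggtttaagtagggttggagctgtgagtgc
The letters stood in 6 of 22 promoters (27.3%) of the acute phase genes called higher, in 7.52% of the promoters of all genes called higher and in 7.66% of all promoters. The 22 promoters belong to 20 genes. Acute phase genes not called were not counted, so a share tied to the call cannot be told from one tied to the list. The NF-kB letters GGANTTTCC stood in 0 of those 22 and in 1.34% of all promoters. With so rare a match, 22 promoters are too few to tell 0 from that share.

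Interferon-stimulated genes moved the other way. Of 43 measured members 26 were lower, 3 higher and 14 not called, with a median of -0.32. The genes of 2 chemokines that draw T cells were among the largest falls: Cxcl11 read 9.46 and 9.54 in control against 7.93 and 8.03 (log2 difference -1.52, adjusted p = 2.83e-09), and Cxcl10 read 9.81 and 10.21 against 8.53 and 8.60 (-1.45, adjusted p = 3.13e-07). The antiviral gene Rsad2 read 9.99 and 10.77 against 8.98 and 9.34 (-1.22, adjusted p = 8.7e-05). Ifit3 read 10.03 and 10.71 against 8.99 and 9.46 (-1.14, adjusted p = 0.000109), Ifit1 was at -0.86 and Oasl2 at -0.77. The master regulator gene Irf7 was at -0.24 and not called (adjusted p = 0.149), and Ifi44l rose by 1.05. Genes of the interferons themselves, their receptors and their signalling had 1 of 20 higher and 1 lower, 10% called against 12.8% of all genes.

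The 2 control arrays differed from each other in this list. Control replicate 2 was above control replicate 1 in 41 of the 43 genes, by a median of 0.24, against 8938 of all 19938 genes and a median of -0.02. Without control replicate 2 the count of falls dropped from 26 to 17 and the median to -0.20, and without control replicate 1 there were 34 falls and a median of -0.45. Ifit3b, at -1.48 with control values of 6.53 and 7.88, was -0.81 without control replicate 2 (adjusted p = 0.0101). With limma's robust variance model Ifit3b and Ifit3 were not called (adjusted p = 0.169 and 0.0513). Macrophage markers moved the opposite way, 16 of 22 higher, and their part in these falls was not tested.

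The promoters of 3 of these genes carry the core of the interferon-stimulated response element, GAAANNGAA, shown in capitals on either strand in windows of 250 bases before the start in build GRCm38.p6. Cxcl10 lies on the minus strand at chr5:92348890-92349139, with the match 204 bases before the start. Rsad2 lies on the minus strand at chr12:26456453-26456702, with the match 110 bases before the start. Ifit3 lies on the plus strand at chr19:34583279-34583528 and holds 3 matches, the nearest 93 bases before the start.
Cxcl10: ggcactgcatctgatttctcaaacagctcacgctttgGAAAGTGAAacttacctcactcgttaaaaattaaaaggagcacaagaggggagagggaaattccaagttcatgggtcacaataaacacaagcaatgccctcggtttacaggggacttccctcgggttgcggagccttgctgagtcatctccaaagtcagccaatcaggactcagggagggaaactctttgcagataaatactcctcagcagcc
Rsad2: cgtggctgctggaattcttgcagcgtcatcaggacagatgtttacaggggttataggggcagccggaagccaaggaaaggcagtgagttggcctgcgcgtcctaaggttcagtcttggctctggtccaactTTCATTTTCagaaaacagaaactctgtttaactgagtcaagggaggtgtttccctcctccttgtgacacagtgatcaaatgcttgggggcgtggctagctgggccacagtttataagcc
Ifit3: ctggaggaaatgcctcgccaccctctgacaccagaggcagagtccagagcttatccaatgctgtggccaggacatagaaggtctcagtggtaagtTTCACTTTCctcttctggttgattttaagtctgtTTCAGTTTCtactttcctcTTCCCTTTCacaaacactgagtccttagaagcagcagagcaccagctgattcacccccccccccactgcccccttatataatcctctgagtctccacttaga
The element's letters stood in 13 of 20 promoters (65%) of the interferon-stimulated genes called lower, in 7.79% of the promoters of all genes called lower, in 9.10% of those called higher and in 7.84% of all promoters. The 20 promoters belong to 18 of the 26 genes called lower. Interferon-stimulated genes not called were not counted, so a share tied to the falls cannot be told from one tied to the list. The remaining motifs searched, TGACNNNGC of the antioxidant response element and the E-box CACGTG, stood in 14.4% and 8.66% of promoters of genes called higher, 14.8% and 10.3% of those called lower, and 13.2% and 8.24% of all.

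**Figure D3:**
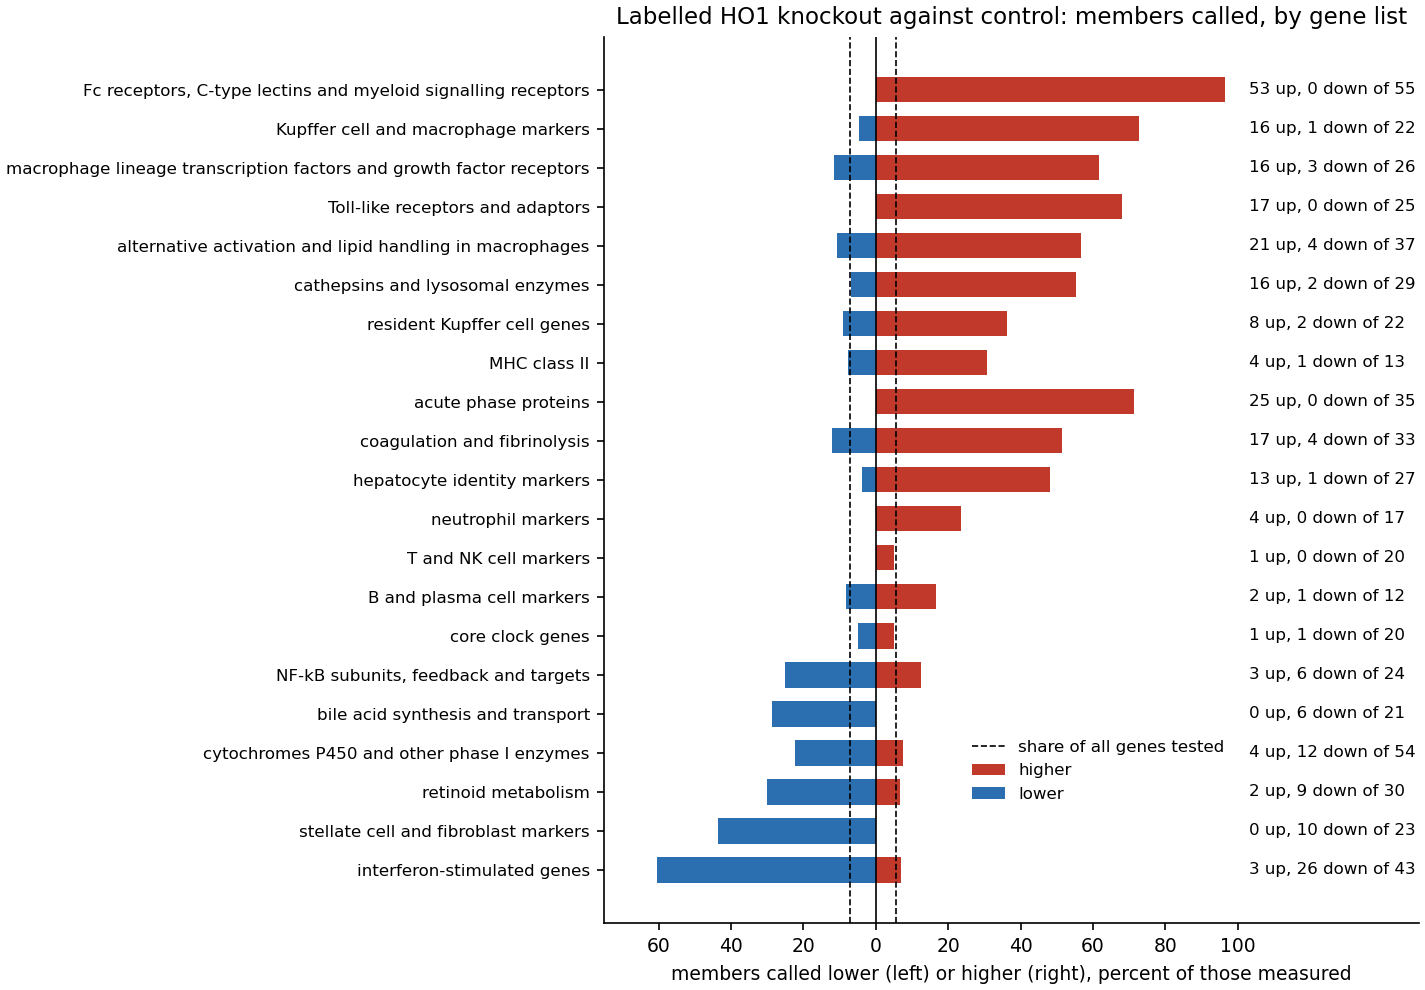
Share of measured members called higher (right, red) and lower (left, blue) in 21 gene lists, in percent, with the counts at the right edge. Dashed lines mark the shares among all genes tested, 5.62% higher and 7.20% lower. Fc receptors, lectins and myeloid receptors reach 53 of 55 higher, and interferon-stimulated genes reach 26 of 43 lower.

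Chemokine and cytokine genes moved in both directions, where 5.62% of all genes were called higher and 7.20% lower. Among Ccl chemokines 6 of 17 were higher and 4 lower, 2 lower without replicate 2 of the arrays labelled HO1 knockout. Ccl6 (3.61), Ccl3 (2.75), Ccl12 (2.67) and Ccl4 (1.85) rose, while Ccl20 fell by 0.86 (11.36 and 11.40 against 10.48 and 10.55) and Ccl5 by 0.62. Ccl2, the main monocyte attractant, was not called, at 13.24 and 13.29 against 13.31 and 13.29 (0.03, adjusted p = 0.773). Cxcl12 fell by 0.51, and the neutrophil attractants Cxcl1, Cxcl2 and Cxcl5 were not called. NF-kB targets also divided, with Vcam1, an adhesion receptor gene, falling by 1.28 (11.45 and 11.47 against 10.14 and 10.21), the growth factor gene Csf2 by 1.01 and Cd40 by 0.76, while Icam1 rose by 0.27. The feedback inhibitor genes Nfkbia and Tnfaip3 were not called (0.07 and -0.08). Il1a, the interleukin 1 alpha gene, read 7.08 and 7.73 against 10.14 and 10.00, a rise of 2.66.

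Markers of stellate cells and fibroblasts, the vitamin A storing and matrix-making cells of the liver, were lower in 10 of 23 measured members and higher in 0. Among all genes 7.20% were called lower and 5.62% higher. Postn, a matrix protein gene of activated fibroblasts, read 9.54 and 9.71 against 8.60 and 8.43 (-1.11, adjusted p = 6.44e-08). Sparc fell by 0.90, the filament gene Des by 0.89, Lum by 0.56, Col1a1 by 0.42 and Acta2 by 0.22, while Dcn, Reln and Col3a1 were not called. The call of Acta2 was lost without the mean-variance trend (adjusted p = 0.0701). The summed linear signal of the list was 34246 and 34435 in control against 30805 and 30184. Without replicate 1 of the arrays labelled HO1 knockout 6 members were lower. Of 30 retinoid genes 9 were lower and 2 higher. The retinoic acid hydroxylase genes Cyp26a1 and Cyp26b1, which are induced by retinoic acid and degrade it, fell by 1.58 and 0.71. Dhrs9 and Rdh10, which oxidise retinol, fell by 0.89 and 0.57, the carotene cleaving Bco1 by 0.83 and the receptor gene Rarb by 0.45, and Lrat, which stores retinol as esters, was at -0.34 (adjusted p = 0.105). Of the matrix remodelling genes 10 of 30 were lower, with Tnc at -0.79 and Mmp13 at -0.65, and 6 higher. Without replicate 2 of the arrays labelled HO1 knockout 6 were lower and 5 higher.

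The largest single falls were in genes of several kinds. Obp2a, a lipocalin gene for an odorant binding protein, read 11.18 and 11.22 in control against 7.73 and 7.30, so it stood 12.9-fold lower (log2 difference -3.69, SE 0.12, adjusted p = 1.09e-12). Fmr1, whose protein binds messenger RNA and restrains translation, read 10.29 and 10.64 against 7.98 and 7.88 (-2.53, adjusted p = 8.61e-12). Its relatives Fxr1 and Fxr2 were not called (-0.12 and -0.13), and Aff2 fell by 0.65. Fbp2, the muscle form of fructose bisphosphatase, read 10.09 and 10.27 against 8.08 and 8.06 (-2.11), and the liver form Fbp1 fell by 0.66. The steroid 21-hydroxylase gene Cyp21a1 was at -1.55, the kinase gene Nrk at -1.41, Sprr1b at -1.34, Serpinb9e at -1.28, Tmprss11f at -1.22 and Lrrc32, which presents latent TGF-beta, at -1.22.

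Genes of heme and iron handling moved in both directions, where 12.8% of all genes were called. Of 12 genes of heme and hemoglobin scavenging and transport 4 were higher and 2 lower (50%), 3 and 1 without replicate 2 of the arrays labelled HO1 knockout. Ambp, whose product includes the heme-binding alpha-1-microglobulin, rose by 1.10, Hp by 0.75 and Hpx by 0.45, the heme and folate carrier gene Slc46a1 fell by 0.47, and Cd163, the receptor for haptoglobin-bound hemoglobin, was not called (0.05). Of 9 heme synthesis enzymes 2 were lower, Alas1, the rate-limiting enzyme of the liver, by 0.27 (11.82 and 11.76 against 11.52 in both) and Alad by 0.29. Of 28 iron genes 4 were higher and 4 lower, with 1 and 2 left without replicate 1 of the arrays labelled HO1 knockout, 2 and 3 without control replicate 1, and 2 and 4 without control replicate 2. Hepcidin (Hamp), ferroportin (Slc40a1), the transferrin receptor (Tfrc) and ferritin heavy chain (Fth1) were not called, at 0.09, -0.12, 0.11 and 0.06. The zinc and iron importer gene Slc39a14 rose by 0.35. The ferritin light chain gene Ftl1 was called at 0.54 (adjusted p = 0.045) on knockout values of 11.80 and 11.09, and was at 0.18 without the first of them (adjusted p = 0.555). Of 27 NRF2 targets and antioxidant genes 4 were higher and 5 lower, 2 and 5 without replicate 1 of the arrays labelled HO1 knockout and 3 and 3 without control replicate 2. Gpx3 rose by 0.67, Srxn1 and Txnrd1 fell by 0.34 and 0.27, and Gclm, Slc7a11 and Nfe2l2 itself were not called. The soluble guanylate cyclase subunit Gucy1a1, whose enzyme binds nitric oxide and carbon monoxide through heme, fell by 0.49 (7.12 and 7.20 against 6.65 and 6.70, adjusted p = 0.0029). Bach1 was not called (0.08).

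Among metabolic genes, cytochromes P450 and other phase I enzymes had 12 of 54 lower and 4 higher, 8 and 2 without replicate 1 of the arrays labelled HO1 knockout, with Fmo2 at -0.99, Fmo1 at -0.96 and Cyp2c70, which makes muricholic acid, at -0.77, while Cyp1a2 rose by 0.67. Bile acid genes had 6 of 21 lower and 0 higher, 3 without control replicate 2 and 2 without replicate 1 of the arrays labelled HO1 knockout, and Cyp7a1, the rate-limiting enzyme of bile acid synthesis, was not called (0.01). Apoa4 fell by 1.04 and Apoe rose by 0.36. The fatty acid translocase gene Cd36 read 9.17 and 9.28 against 11.13 and 11.20, a rise of 1.94. Core clock genes, on which the study's title turns, had 1 of 20 higher and 1 lower, 10% against 12.8% of all genes. Arntl was at -0.17 (adjusted p = 0.203), Per2 at 0.22 (adjusted p = 0.0939), Nr1d1 at -0.03 and Clock at -0.06. The 2 calls were Nfil3 (0.25) and Bhlhe40 (-0.36), and both were lost without control replicate 2 (adjusted p = 0.078 and 0.0961) and without replicate 2 of the arrays labelled HO1 knockout (0.17 and -0.20). With 1 harvest time per culture, these values hold no information on rhythms.

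Genes around Hmox1 were examined for a shared change near the targeted locus. Of 107 other genes within 5 Mb, 6 were higher and 6 lower, or 11.2% against 12.8% of all genes. Of the 6 nearest genes, 3 on each side, 1 was called: Tom1, the immediate neighbour, at -0.20 (10.41 and 10.35 against 10.17 and 10.20, adjusted p = 0.0411), a call lost when any 1 of the 8 arrays was left out, with differences between -0.23 and -0.16. Mcm5 on the other side was not called (0.06). Farther out, the leukocyte receptor gene Lrrc25 rose by 1.70, the lysosomal reductase gene Ifi30 by 0.33, and Bst2, an interferon-stimulated gene, fell by 0.36.

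The arrays with HO2 shRNA gave a second measurement of the genotype difference on other arrays. Both comparisons took their spread from all 8 arrays. Whether these arrays came from other animals or hepatocyte preparations is not given, so a recurrence may repeat the same preparations. In these arrays Hmox2 read 8.32 and 8.38 in HO1+/+ cells and 9.26 and 9.33 in HO1-/- cells, below all 4 scrambled shRNA arrays. The remaining Hmox2 signal was thus higher in HO1-/- than in HO1+/+ cells. Effects of the genotype and of this unequal signal cannot be told apart in any result below that uses these arrays. Between HO1-/- and HO1+/+ cells 6775 genes were called (34.0%), 2591 higher (13%) and 4184 lower (21.0%). With the arrays centred on their medians, 24.1% of these calls were rises, against 38.2%, and without replicate 1 of the HO1+/+ arrays with HO2 shRNA 3826 genes were called. Of the 2557 genes called with scrambled shRNA, 82.7% had the same sign with HO2 shRNA and 1526 (59.7%) were called in the same direction. Of the 275 that rose at least 2-fold 252 were called higher again, and of the 31 that fell at least 2-fold 22 were called lower again. The genotype by shRNA interaction, the difference between the 2 genotype differences, was called for 2442 genes (12.2%), 749 of them among the 2557. Leaving out 1 array moved the interaction count between 1301 and 4745, the latter without control replicate 2.

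All 53 called members of the Fc receptor and lectin list rose again, with a median of 1.99 over its 55 members. Obp2a, Fmr1 and Cyp26a1 fell again, to log2 differences of -4.66, -2.68 and -1.56. The acute phase list did not move as a whole there, with 8 of 35 higher, 7 lower and a median of -0.01. For 22 of its 25 rises the interaction was called and the difference was smaller or opposite with HO2 shRNA, as for Fgg (0.25, interaction adjusted p = 7.47e-09), Lrg1 (0.10, 7.31e-09) and Orm1 (-0.13, 5.49e-08). The interferon-stimulated list went the other way, with 23 of 43 higher, 5 lower and a median of 0.27, and 19 of its 26 falls were called smaller or opposite by the interaction. Over all genes, 347 of 1121 rises and 246 of 1436 falls were called smaller or opposite. The interaction subtracts the same difference by which these genes were selected, which favours such calls. Control replicate 2, high in the interferon-stimulated list, enters both. Oasl2, at -0.77 with scrambled shRNA, was at 0.80 with HO2 shRNA (interaction adjusted p = 5.94e-06). Cxcl11 and Cxcl10 fell with both, to -0.53 and -0.62. In the stellate cell list 5 of the 10 falls recurred, 7 were called less lowered by the interaction, and 5 of 23 members were higher with HO2 shRNA, among them Acta2 (0.30, adjusted p = 0.000273), with a median of 0.02. In the retinoid list 7 of 9 falls recurred, and the interaction called 1 less lowered and 2 more lowered. Of the resident Kupffer cell genes 11 of 22 were higher with HO2 shRNA and 2 lower, with a median of 0.32. Clec4f, not called with scrambled shRNA, was higher by 0.53 there (adjusted p = 0.00258, interaction adjusted p = 0.0349), and Vsig4, lower with scrambled shRNA, was at 0.30 and not called (interaction adjusted p = 0.000185).

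**Figure D4:**
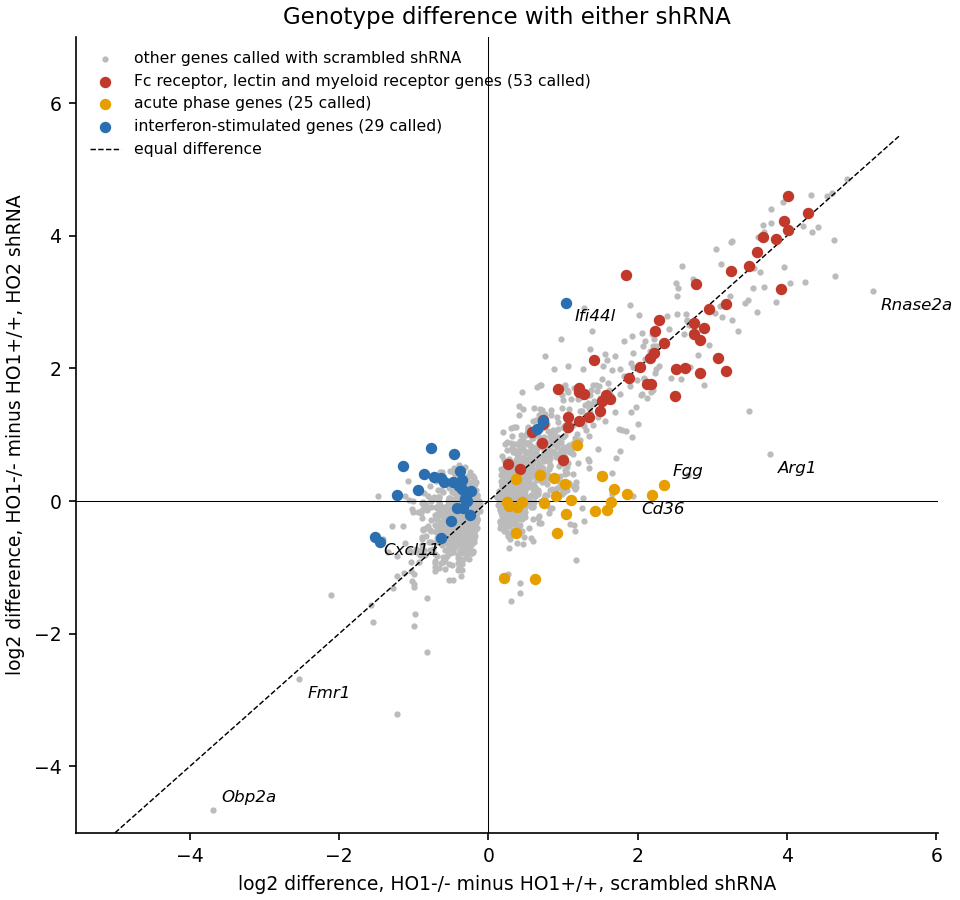
Log2 difference between HO1-/- and HO1+/+ arrays with scrambled shRNA (horizontal) and with HO2 shRNA (vertical), for the 2557 genes called with scrambled shRNA. Red, orange and blue points are called members of the Fc receptor and lectin, acute phase and interferon-stimulated lists, and the dashed line marks equal differences. Red points follow the line, most orange points lie near 0 on the vertical axis, and most blue points lie left of 0 and at or above it.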

How the data were processed

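Hepatocyte RNA was hybridised to 8 Affymetrix whole-transcript arrays, 2 a group. The deposited values are log2 signals that, per the submitters' processing notes, the authors made by RMA with the affy package (R 2.15.0). RMA forces like distributions on all arrays, so a shift of all genes cannot be seen, and array values carry no counting depth: the number of arrays limits precision. Of 34760 probe sets 21640 named 1 gene, 1321 several and 11799 none. The probe set with the highest mean stood for a gene, which left 19938 genes, and 0 value columns lacked a sample. Groups came from the titles. One limma 3.58.1 model (R 4.3.3, lmFit and eBayes with a mean-variance trend) was fitted over all 8 arrays, 4 residual degrees of freedom, with Benjamini-Hochberg adjustment over all genes, and the script was tested on simulated data. Promoters came from RefSeq (GRCm38.p6), which held 15613 of the genes.

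The genes named were Hmox1 and Hmox2, the 15 largest rises and falls without overlap of the groups (predicted genes left out), core members and the 5 largest called changes of each of 65 lists, all members of lists of up to 12 genes, genes near Hmox1 and the 10 largest interactions. The comparison and the lists were chosen with earlier results of these data known. Alternatives were other variance models, array weights, centring, normalization, filters, probe-set means, replicate blocks, only the 4 arrays compared, stricter thresholds and leaving out each array.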

Additional observations from a re-analysis of the deposited data

Results flagged for a closer look

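For 749 of the 2557 genes called with scrambled shRNA, the genotype difference with HO2 shRNA differed from that with scrambled shRNA by the interaction test of limma. The genes were selected by the scrambled shRNA difference that the interaction subtracts, which favours smaller differences with HO2 shRNA. The 10 largest such differences, given as the genotype difference with HO2 shRNA minus that with scrambled shRNA on the log2 scale, were the following. Arg1, the arginase gene, stood at -3.06, and the chemokine gene Ccl12 at -2.27. The macrophage membrane protein gene Ms4a7 stood at -2.14, and the ribonuclease gene Rnase2a, the largest rise with scrambled shRNA, at -1.98. The plasma protein genes Lrg1 and Fgg both stood at -2.10. The matrix proteoglycan gene Prelp stood at -2.07, the fatty acid carrier gene Cd36 at -1.85 and the fatty acid hydroxylase gene Cyp4a12a at -1.81. The interferon-stimulated gene Ifi44l was the 1 of the 10 with a larger rise under HO2 shRNA, at 1.95.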

How the results depend on the processing

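Requiring an adjusted p under 0.01 left 1575 genes called with scrambled shRNA, 4283 with HO2 shRNA and 1065 for the interaction. Requiring a change of at least 2-fold left 306, 325 and 104. Without the mean-variance trend the interaction was called for 1359 genes. Leaving out each array in turn gave 1704 to 2937, 3826 to 8253 and 1301 to 4745 genes. With arrays centred on their medians, calls with HO2 shRNA split into 1723 higher and 5417 lower and those of the interaction into 678 and 1821. Of 328 named genes called with scrambled shRNA, 129 kept their call under all 20 alternatives and 0 changed sign under any. The requirement of at least 2-fold alone dropped 197 of the 328. Leaving out the mean-variance trend dropped 36, and an adjusted p under 0.01 dropped 32. The deviations of samples with the same replicate number correlated between -0.26 (control and HO1 knockout) and 0.12 (both groups with HO2 shRNA) over the 6 pairs of groups, and not every r was above 0.1, so the numbers were not taken to pair the arrays. With the replicate number as a block 2501, 6563 and 2327 genes were called. A crossed pairing as block, added after seeing the data, gave 2875, 7394 and 2954. With 2 arrays a group, precision is limited by the number of arrays.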

Other observations

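Targets of the glucocorticoid receptor, which the dexamethasone pulse addresses in all 4 arrays, differed by genotype in small steps. Of 21 measured members 8 were higher and 1 lower in the arrays labelled HO1 knockout, against 12.8% of all genes called, with a median log2 difference of 0.11. Tat, the tyrosine aminotransferase of the liver, read 10.79 and 10.68 in control against 11.36 and 11.35 (0.62, limma adjusted p = 7.65e-08). The kinase gene Sgk1 rose by 0.44, Tsc22d3, whose protein dampens inflammatory signalling, by 0.30, and the phosphatase gene Dusp1 by 0.26. Hsd11b1, which regenerates active glucocorticoid, fell by 0.51 (8.24 and 8.23 against 7.77 and 7.68).

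Lipid genes moved in both directions, where 5.62% of all genes were called higher and 7.20% lower. Of 34 genes of cholesterol synthesis and lipogenesis 9 were higher and 4 lower. The desaturase gene Scd2 read 9.76 and 9.77 against 10.86 and 10.90 (1.11, limma adjusted p = 2.99e-09), Sqle, an enzyme of the sterol pathway, rose by 0.50 and the sterol feedback gene Insig1 by 0.45, while Acacb, whose product malonyl-CoA restrains fatty acid oxidation, fell by 0.48. Of 28 genes of fatty acid oxidation, ketogenesis and PPARA targets 7 were lower and 1 higher, and 4 were lower without control replicate 2, 4 without replicate 1 and 3 without replicate 2 of the arrays labelled HO1 knockout. Pdk4, which limits glucose oxidation, fell by 0.53, and the acyl-CoA thioesterase gene Acot2 by 0.47. The cholesterol exporter gene Abcg1 rose by 0.53.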
